A study of Mus musculus with 36 samples.

Results

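Striatal RNA of DBA/2J mice was compared between 1 dose of morphine and saline, on 3 Affymetrix whole-genome mouse arrays per group, 6 of the 36 arrays of a study that gave morphine to 4 inbred strains. Mice of the acute morphine group were adult males of 8 to 10 weeks that had saline injections 3 times daily for 4 days and then, on day 5, a single subcutaneous dose of 20 mg/kg of morphine. Control mice, of the same strain, sex and age, had saline throughout, and the striatum was taken 4 hours after the last injection in both groups. RNA of 3 mice was pooled for each array, which makes 9 mice per group, and the p-values measure the spread between pools. The tissue was the rostral caudate and putamen with the nucleus accumbens, so the values average over all of its cell types, and fewer cells of a type cannot be told apart from less RNA per cell. Members of the comparison were all probe sets other than controls with a log2 intensity above 6.64 on at least 3 of the 6 arrays, which held for 25633 of 45037. A gene was represented by its tested probe set of highest mean signal, which gave 12791 genes. The other 3 strains, 129P3/J, C57BL/6J and SWR/J, had the same groups and schedule, and a chronic group of DBA/2J mice received rising doses that ended with 40 mg/kg.

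Morphine acts on the mu opioid receptor, a receptor coupled to inhibitory G proteins that is dense in patches of the striatum. A systemic dose also reaches other brain regions and activates the pituitary and adrenal axis, and corticosterone then enters the brain, where the glucocorticoid receptor binds DNA and raises the transcription of genes such as Fkbp5 and Tsc22d3. Heat shock genes are raised by another route, in which heat shock factor binds repeats of GAA and TTC in their promoters. In the striatum most neurons are medium spiny neurons, which use GABA and carry the enkephalin precursor Penk or substance P precursor Tac1.

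Arrays of the acute morphine group correlated with each other at a Pearson r of 0.974 to 0.985 across probe sets, and saline arrays at 0.945 to 0.973. Saline replicate 2 lay closer to acute replicates 2 and 3 (0.981 and 0.973) than to saline replicates 1 and 3 (0.964 and 0.945). On saline replicate 3 the poly-A control transcripts scored -3.47 on the log2 scale, against 0.25 to 0.35 on the acute arrays and 0.27 on both other saline arrays. The log2 ratio of the 3' to the 5' control probe set of Actb, a measure of RNA integrity and labeling, was 0.83, 0.67 and 0.81 on the acute arrays, against 0.42, 0.60 and 0.40 on the saline arrays, with no overlap. Deviations from the group mean were shared with arrays of the same treatment and number in the other strains, with r above 0 in 18 of 18 pairs (0.048 to 0.561). The part of these array differences in the results was not tested. The tissue label was borne out by the markers of medium spiny neurons: Penk lay between 12.17 and 12.19 on the acute arrays and between 12.13 and 12.26 on the saline arrays, and Ppp1r1b, which encodes DARPP-32, between 11.39 and 11.62 and between 11.32 and 11.49 in the same order.

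After morphine, 217 probe sets were higher and 95 lower at an adjusted p under 0.05 (moderated test in limma, 36 arrays), which is 0.847% and 0.371% of those tested and 1.22% for both directions. The rises included the glucocorticoid receptor co-chaperone Fkbp5, the inducible Hsp70 genes Hspa1a and Hspa1b, the cell cycle inhibitor Cdkn1a and the clock genes Per2, Per1 and Arntl, and the falls the splicing regulator Hnrnpl, the phospholipid flippase Atp8a1 and the myelin gene Opalin. Changes were of moderate size: rises had a median of 0.60 on the log2 scale and falls a median of -0.75, against 0.017 over all tested probe sets, and 12 rises and 16 falls reached a fold of 2. Of the rises, 21 were above the detection threshold on the 3 acute arrays alone, and of the falls 18 on the 3 saline arrays alone, so the filter itself required these to differ. All acute arrays lay above all saline arrays for 16.3% of the probe sets and below them for 8.8%, and 311 of the 312 called probe sets did not overlap between groups. Counted by gene, at the probe set of highest mean signal, 113 of 12791 rose (0.883%) and 27 fell (0.211%), with a median change of 0.041 over all genes. Over all their probe sets with 1 symbol, the called rises lay in 188 genes and the called falls in 68.

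These counts rested on single arrays and on the spread borrowed from the other groups. Without saline replicate 1 there were 8 rises and 1 fall, without saline replicate 3 there were 13 and 4, without acute replicate 1 there were 7 and 2, and without acute replicate 3 there were 13 and 1. Without saline replicate 2 the counts grew to 533 rises and 383 falls, and without acute replicate 2 they were 186 and 104. A fit to the 6 DBA/2J arrays alone called 0 probe sets, with 4607 at an unadjusted p under 0.05. Every one of the 312 called probe sets kept its sign when any of the 6 arrays was left out. That was fixed in advance for the 311 whose groups did not overlap, so it is no sign of stability. Of the 140 called genes 3 passed the threshold in each such fit: Fkbp5, Aff1 and Dnajb1.

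**Figure D1:**
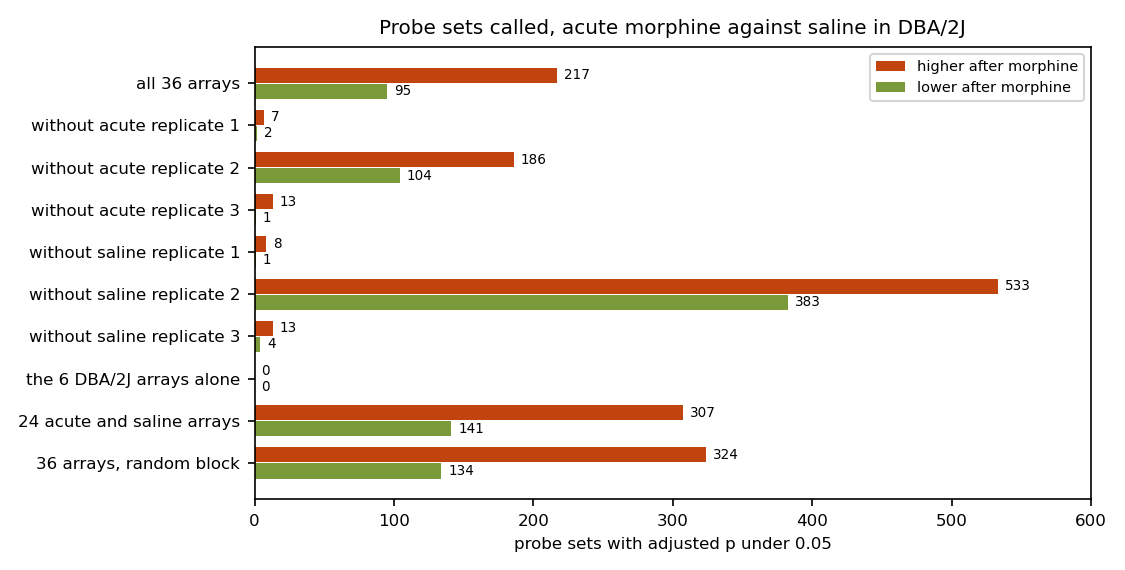
Number of probe sets with an adjusted p under 0.05 for acute morphine against saline in DBA/2J (horizontal axis), higher (upper bar) and lower (lower bar) after morphine, for the fit to all 36 arrays and for fits that leave out 1 of the 6 DBA/2J arrays, use fewer arrays or add a random block of treatment and number. The counts span 0 to 533 rises and 0 to 383 falls.

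Fkbp5 encodes an immunophilin that binds Hsp90 and lowers the hormone affinity of the glucocorticoid receptor. Fkbp5 had log2 intensities of 10.00, 10.01 and 9.97 on the acute morphine arrays, against 8.98, 8.87 and 9.20 on the saline arrays. The acute arrays lay close together and above all saline arrays, and the change of 0.98 ± 0.092 (SE, n = 3 arrays per group here and for each change below) had an adjusted p of 6.75e-07. A second probe set of Fkbp5 rose by 0.67 (adjusted p = 0.0288). Aff1, a scaffold of the super elongation complex that releases paused RNA polymerase, had log2 intensities of 8.23, 7.98 and 8.15 on the acute morphine arrays, against 7.19, 7.31 and 6.96 on the saline arrays. Its change was 0.97 ± 0.12 (adjusted p = 0.000108), again with no overlap.

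Of the lists defined by function, glucocorticoid-responsive genes had the most rises: 9 of 29 tested members rose (31.0%, against 0.883% of all genes), none fell, and the list's median change was 0.31, against 0.041 over all genes. Besides Fkbp5, the risers were Rhpn2 (0.92 ± 0.15), Sult1a1 (0.88 ± 0.22), a phenol sulfotransferase, Gpt2 (0.88 ± 0.21), the mitochondrial alanine aminotransferase, Plin4 (0.87 ± 0.22), a lipid droplet coat protein, Tsc22d3 (0.75 ± 0.15), which encodes the glucocorticoid-induced leucine zipper GILZ, Klf15 (0.62 ± 0.15), a Krüppel-like factor, Sgk1 (0.60 ± 0.15), a kinase of ion transport, and the clock gene Per1. Their adjusted p-values lay between 6.75e-07 and 0.0489. Tsc22d3 had log2 intensities of 10.43, 10.38 and 10.30 on the acute morphine arrays, against 9.16, 9.82 and 9.86 on the saline arrays. Sgk1 had log2 intensities of 10.62, 10.57 and 10.39 on the acute morphine arrays, against 9.74, 10.30 and 9.73 on the saline arrays. Saline replicate 2 was the highest saline array for Sgk1 and nearly reached the acute arrays, and saline replicate 1 was the lowest for Tsc22d3. Klf15 had log2 intensities of 8.42, 8.27 and 8.08 on the acute morphine arrays, against 7.56, 7.65 and 7.71 on the saline arrays, so that the groups did not overlap. Many members of the list were chosen with the study's own results on these arrays known, so their direction is not independent evidence. The same holds for 47 tested genes that the study names for morphine, of which 13 rose and 0 fell, with a median of 0.26.

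The other 20 members did not pass. Of all 29, 28 had a difference above 0 and 1 below 0. With 1 array left out, the difference ranged from -0.49 to -0.21 for Cebpd, from -0.0033 to 0.083 for Nfkbia and from 0.00062 to 0.19 for Fzd2. Zbtb16, a zinc finger repressor, had a difference of 0.73 ± 0.29 (adjusted p = 0.183), and saline replicate 3 at 10.00 lay among the acute arrays at 10.07, 10.17 and 9.94. Pdk4, the kinase that shuts off pyruvate dehydrogenase, differed by 0.61 ± 0.19 without overlap (adjusted p = 0.0907). The metallothioneins Mt1 and Mt2 had differences of 0.21 ± 0.10 and 0.16 ± 0.087 (adjusted p = 0.263 and 0.326). The differences of the receptors themselves were smaller than their standard errors: Nr3c1, the glucocorticoid receptor, had -0.04 ± 0.13 and Nr3c2, the mineralocorticoid receptor, 0.02 ± 0.12 (adjusted p = 0.894 and 0.95). Of 6 tested genes of corticosteroid receptors and steroid handling, 0 passed and 1 had an unadjusted p under 0.05, and with the random block 0 passed. They include Hsd11b1 (0.27 ± 0.12) and Hsd11b2 (0.17 ± 0.22), which regenerate and inactivate corticosterone, Fkbp4 (0.18 ± 0.13) and Abcb1a (0.12 ± 0.10). Counting the 29 glucocorticoid-responsive genes without 1 array gave 1 rise without saline replicate 1, 2 without acute replicate 1 or 3, 3 without saline replicate 3, 4 without acute replicate 2 and 10 without saline replicate 2.

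**Figure D2:**
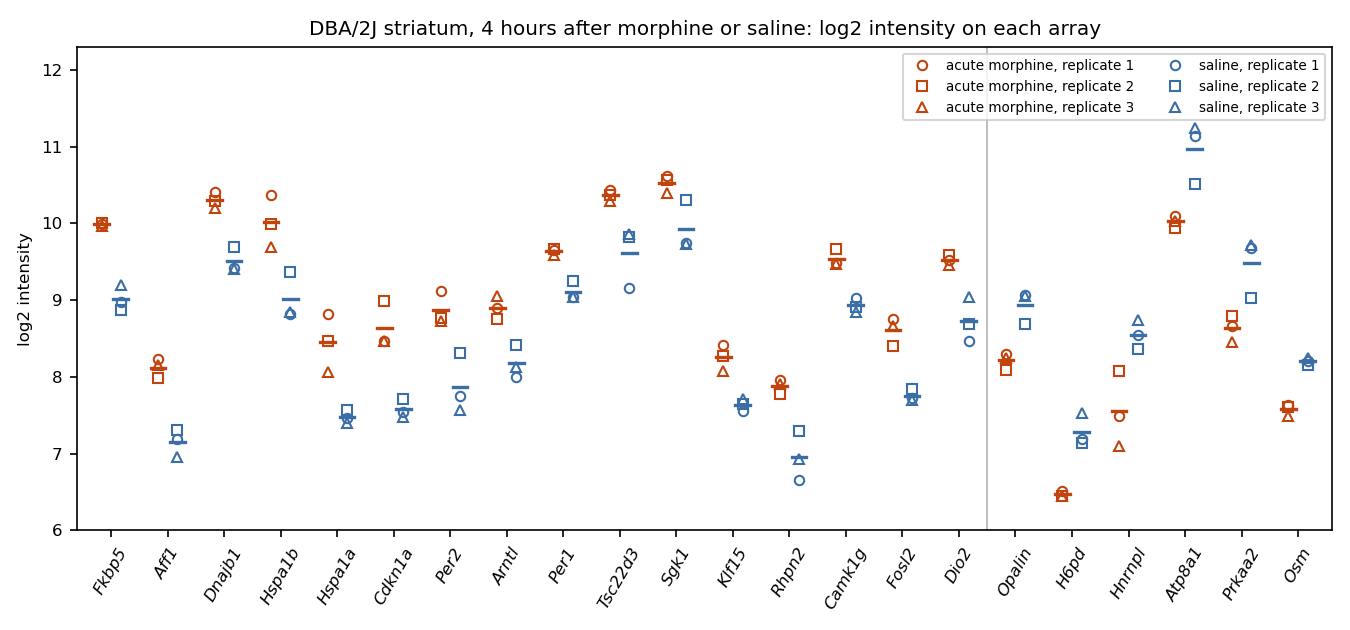
Log2 intensity (vertical axis) of 22 named genes on each of the 3 acute morphine arrays (left of each pair) and the 3 saline arrays (right), with replicates by symbol and group means as bars. Genes left of the vertical line rose and those right of it fell at an adjusted p under 0.05, and in each gene the groups do not overlap. Saline replicate 2 is the saline array nearest to the acute arrays in genes such as Sgk1, Rhpn2, Atp8a1 and Prkaa2.

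Promoter windows of 300 bases, most of them before an annotated start in RefSeq (GRCm38.p6), are shown for 4 genes of the glucocorticoid and heat shock lists. Sgk1 holds the full glucocorticoid element and Hsph1 the heat shock element of 3 units. Hspa1b and Hspa1a do not hold the element of 3 units. They are shown for the shorter GAANNTTC, which was searched after their values were seen. The 2 windows of Dnajb1, a heat shock gene that rose, hold none of the heat shock forms below, which says only that these letters are not there. The full glucocorticoid response element, which is ACANNNTGT with AGA before and TCT after it and reads the same on both strands, occurs in 3 of 32851 windows (0.00913%), and 1 of these is at the fifth of 6 annotated starts of Sgk1. A gene may have several windows, 1.22 on average over all 27025 genes with a window, 1.43 over 23 glucocorticoid-responsive genes and 1.38 over 16 heat shock genes, and is counted below where any of its windows holds the letters. The shorter core ACANNNTGT is in 6.85% of all windows, at 7.9% of all genes and at 4 of the 23 glucocorticoid-responsive genes (17.4%), of which Sgk1 alone rose. For heat shock factor, the element of 3 units, which is GAANNTTC followed by NNGAA or, on the other strand, TTCNNGAA followed by NNTTC, is in 0.603% of windows, at 0.662% of all genes and at 4 of the 16 heat shock genes (Hsph1, Hspd1, Hspe1 and Chordc1), and its pairs of units overlap with it. GAANNTTC alone, a search added after the data were seen, is in 7.86% of windows, at 9.04% of all genes and at 9 of the 16, and TTCNNGAA in 8.52%, at 9.6% and at 5. The cyclic AMP response element TGACGTCA is in 1.79% of windows, at 2.03% of all genes and at 2 of the 23 and 0 of the 16. Capitals mark the full glucocorticoid element in Sgk1, the heat shock element of 3 units in Hsph1, and GAANNTTC in Hspa1b and Hspa1a. The match in Hsph1 begins at base 37 after the annotated start of its window. Matches before the start begin at -189 in Sgk1 and at -104 in Hspa1b and Hspa1a. The windows of Hspa1b and Hspa1a are identical at 296 of 300 bases.
Sgk1 (chr10:21993640-21993939, plus strand): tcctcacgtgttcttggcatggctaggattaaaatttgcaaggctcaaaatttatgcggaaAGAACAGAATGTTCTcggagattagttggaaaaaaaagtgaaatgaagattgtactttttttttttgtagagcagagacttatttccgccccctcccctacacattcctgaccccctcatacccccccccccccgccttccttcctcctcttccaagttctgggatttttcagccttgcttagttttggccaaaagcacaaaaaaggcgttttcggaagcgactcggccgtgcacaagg
Hsph1 (chr5:149636287-149636586, minus strand): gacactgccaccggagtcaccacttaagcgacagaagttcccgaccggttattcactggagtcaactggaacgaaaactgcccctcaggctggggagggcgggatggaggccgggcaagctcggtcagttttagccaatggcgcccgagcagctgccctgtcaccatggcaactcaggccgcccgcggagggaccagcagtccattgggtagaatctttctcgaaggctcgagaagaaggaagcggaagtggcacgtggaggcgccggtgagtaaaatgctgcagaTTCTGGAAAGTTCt
Hspa1b (chr17:34959189-34959488, minus strand): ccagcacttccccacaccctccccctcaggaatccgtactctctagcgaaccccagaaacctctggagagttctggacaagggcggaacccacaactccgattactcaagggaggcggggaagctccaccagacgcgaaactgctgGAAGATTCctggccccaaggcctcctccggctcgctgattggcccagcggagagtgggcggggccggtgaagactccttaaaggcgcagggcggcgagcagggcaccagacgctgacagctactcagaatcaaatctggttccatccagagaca
Hspa1a (chr17:34972107-34972406, minus strand): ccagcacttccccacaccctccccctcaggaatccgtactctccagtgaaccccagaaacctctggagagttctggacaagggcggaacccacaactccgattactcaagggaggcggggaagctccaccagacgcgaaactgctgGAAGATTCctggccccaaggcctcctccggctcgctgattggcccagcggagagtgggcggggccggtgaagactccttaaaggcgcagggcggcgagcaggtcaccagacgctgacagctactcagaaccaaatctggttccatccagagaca
A match is a description of the letters and not evidence of binding, and Hsph1, which holds the longer heat shock element, had a difference of 0.31 ± 0.11 that did not pass (adjusted p = 0.126).

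Heat shock and chaperone genes had 3 rises among 19 tested members (15.8%, against 0.883% of all genes), 0 falls, and a median change of 0.25. The risers were the inducible Hsp70 pair and Dnajb1, the Hsp40 that hands substrates to Hsp70. Hspa1b had log2 intensities of 10.38, 10.00 and 9.70 on the acute morphine arrays, against 8.82, 9.37 and 8.85 on the saline arrays. Acute replicate 1 was highest and saline replicate 2 came nearest to the acute arrays, and the change was 1.01 ± 0.17 (adjusted p = 0.00524), a fold of 2.01. Its other 2 probe sets, of lower signal, rose by 1.59 and 1.21 (adjusted p = 0.00173 and 0.00529). Hspa1a had log2 intensities of 8.82, 8.46 and 8.06 on the acute morphine arrays, against 7.47, 7.57 and 7.40 on the saline arrays. The change of Hspa1a was 0.97 ± 0.18 (adjusted p = 0.00894). The coding sequences of the pair are nearly the same, so that their signals may not be separate measurements. Dnajb1 had log2 intensities of 10.41, 10.29 and 10.20 on the acute morphine arrays, against 9.42, 9.69 and 9.40 on the saline arrays. Here no array overlapped, and the change was 0.79 ± 0.12 (adjusted p = 0.00173), with 0.56 at a second probe set that did not pass (adjusted p = 0.13).

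A further 8 chaperone genes had all acute arrays above all saline arrays without passing the test. They were Dnajb4 (0.38 ± 0.10, adjusted p = 0.0583) and Dnaja1 (0.27 ± 0.11), both Hsp40 proteins, Hspa4l (0.33 ± 0.11), Hsph1 and Hspa2 (0.31 ± 0.15) of the Hsp70 and Hsp110 families, Ahsa1 (0.26 ± 0.12), which stimulates the Hsp90 ATPase, Hspd1 (0.18 ± 0.084), the mitochondrial Hsp60, and Hspb1 (0.17 ± 0.11), a small heat shock protein. Groups overlapped for the constitutive Hsp70 gene Hspa8 (0.09 ± 0.089), Hsp90aa1 (0.10 ± 0.075), the small heat shock protein Cryab (0.25 ± 0.19), Hspe1 (0.10 ± 0.097), Stip1 (0.01 ± 0.092), Bag3 (-0.01 ± 0.13), Chordc1 (0.13 ± 0.21) and the heat shock factor Hsf2 (-0.31 ± 0.16). In all, 11 of 19 members had the acute arrays on top, against 18.9% of all genes, and 0 had them below, against 6.12%. Dnaja4, an Hsp40 outside the list that was named after its values were seen, rose by 0.40 ± 0.10 (adjusted p = 0.0479). The list kept 1 rise without acute replicate 1, saline replicate 1 or saline replicate 3, 3 without acute replicate 3 and 4 without acute replicate 2 or saline replicate 2.

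Circadian clock genes had 3 rises among 17 tested members (17.6%, against 0.883% of all genes) and 0 falls. The list's median was 0.22, against 0.041 over all genes. Of the list, 8 of 17 had all acute arrays on top, against 18.9% of all genes, and 1 had them below, against 6.12%. The clock is a feedback loop in which the Arntl and Clock proteins activate the Period and Cryptochrome genes, whose products then repress them. Per2 had log2 intensities of 9.12, 8.76 and 8.72 on the acute morphine arrays, against 7.75, 8.31 and 7.56 on the saline arrays. Its change was 0.99 ± 0.22 (adjusted p = 0.0243), and a second probe set of lower signal differed by 0.24 (adjusted p = 0.588). Arntl had log2 intensities of 8.90, 8.76 and 9.05 on the acute morphine arrays, against 8.00, 8.41 and 8.13 on the saline arrays. Per1 had log2 intensities of 9.65, 9.67 and 9.59 on the acute morphine arrays, against 9.05, 9.24 and 9.04 on the saline arrays. Arntl, the partner of Clock, rose by 0.72 ± 0.13 and Per1 by 0.53 ± 0.11 (adjusted p = 0.00826 and 0.0218), and in both genes saline replicate 2 was the highest saline array. Cry1 (0.74 ± 0.28), Rora (0.48 ± 0.20), Per3 (0.40 ± 0.16), Cry2 (0.28 ± 0.099) and Tef (0.22 ± 0.083) had non-overlapping, higher acute arrays with adjusted p-values of 0.135 to 0.199, although the mean over all tested probe sets of Rora and of Tef had the opposite sign (-0.14 and -0.30). Dbp (-0.36 ± 0.18) and Nr1d1 (-0.40 ± 0.26), targets of Arntl and Clock, had differences below 0 with overlap (adjusted p = 0.277 and 0.422), and Rorb was the 1 member with all acute arrays below the saline arrays (-0.24 ± 0.16, adjusted p = 0.431). The list had 3 rises without acute replicate 2 or saline replicate 2, and 0 without any other single array.

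Immediate early genes had 1 rise among 22 tested members (4.55%, against 0.883% of all genes). Fosl2, the AP-1 subunit Fra-2, had log2 intensities of 8.76, 8.40 and 8.67 on the acute morphine arrays, against 7.73, 7.85 and 7.69 on the saline arrays, with no overlap and a change of 0.85 ± 0.18 (adjusted p = 0.0218). Arc, an activity-regulated synaptic gene, had log2 intensities of 9.95, 9.92 and 9.74 on the acute morphine arrays, against 8.95, 9.55 and 8.92 on the saline arrays, a difference of 0.72 ± 0.20 (adjusted p = 0.0646). Egr2, an early growth response factor, differed by 0.95 ± 0.36 and Fos by 0.71 ± 0.27 (adjusted p = 0.163 and 0.171), with large spread between arrays and no overlap. Egr1 (0.41 ± 0.12) and Dusp6 (0.47 ± 0.14), a phosphatase of ERK, were closer together (adjusted p = 0.0915 and 0.0806), and Junb (0.15 ± 0.25) overlapped between groups. Of the list, 8 of 22 had all acute arrays on top, against 18.9% of all genes, and 0 had them below, against 6.12%. Fosl2 passed without acute replicate 2 or saline replicate 2, and without any other array its adjusted p was 0.106 to 0.133.

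**Figure D3:**
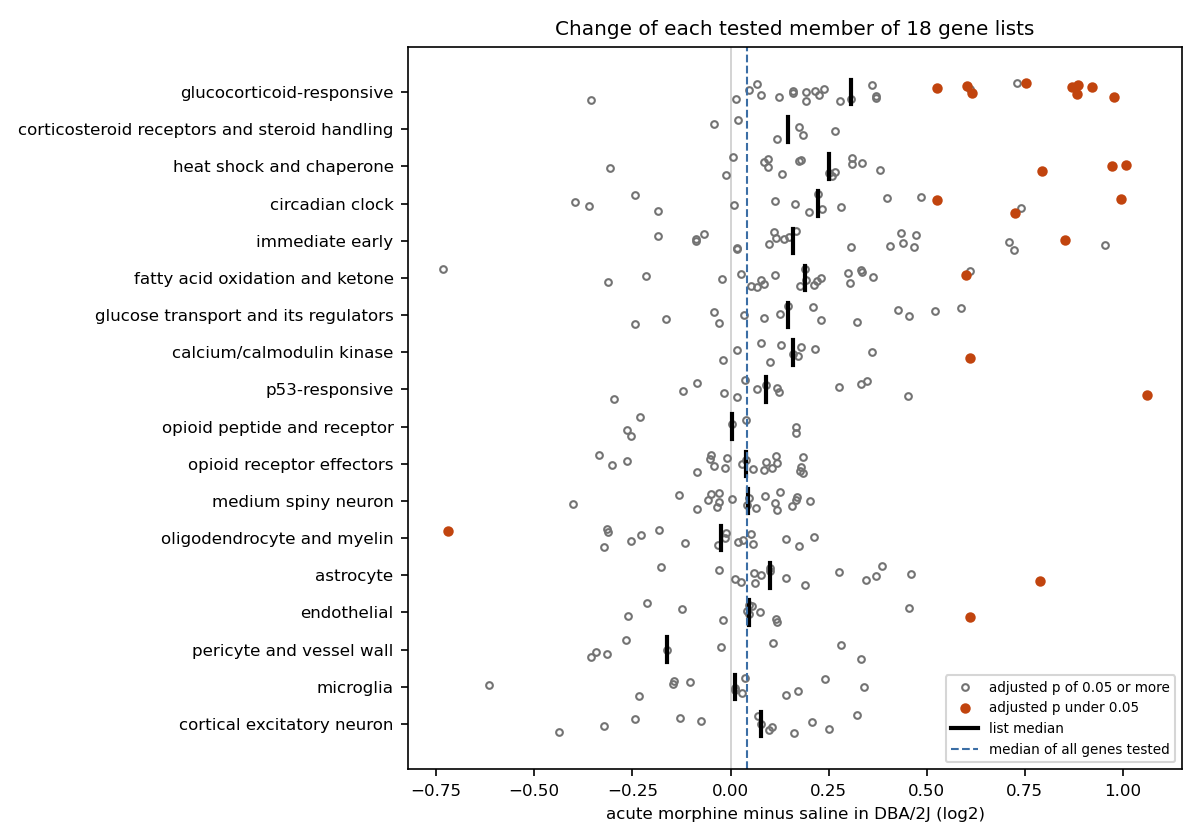
Acute morphine minus saline in DBA/2J on the log2 scale (horizontal axis) for each tested member of 18 gene lists (rows), filled where the adjusted p was under 0.05, with the median of each list as a bar and the median of all genes (0.041) as a dashed line. The glucocorticoid-responsive (9), heat shock (3) and circadian (3) lists hold the most filled points, and the opioid and medium spiny neuron lists hold none. Of all genes, 0.883% rose and 0.211% fell.

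Among single genes, Cdkn1a, which encodes the cyclin-dependent kinase inhibitor p21 and is induced by p53 and by steroid hormones, had log2 intensities of 8.47, 8.99 and 8.46 on the acute morphine arrays, against 7.55, 7.71 and 7.48 on the saline arrays. The groups were far apart, with a change of 1.06 ± 0.18 (adjusted p = 0.00634) and a fold of 2.09, whereas a second probe set of lower signal differed by -0.25 (adjusted p = 0.635). It was the only one of 15 tested p53-responsive genes to pass, a share of rises of 6.67%, against 0.883% of all genes. Rin2, an exchange factor for Rab5, had the largest rise among called genes, each at its probe set of highest mean signal, 1.08 ± 0.22. Rin2 had log2 intensities of 8.47, 8.30 and 8.69 on the acute morphine arrays, against 7.17, 7.52 and 7.54 on the saline arrays. Crot, the peroxisomal carnitine octanoyltransferase, rose by 0.60 ± 0.14 (adjusted p = 0.0299) as 1 of 23 genes of fatty acid oxidation (4.35%). Of the 23, 12 had an unadjusted p under 0.05 in limma, against 17.1% of all genes. All acute arrays were on top in 7, against 18.9%, and below in 2, against 6.12%. Camk1g, a calcium and calmodulin dependent kinase, rose by 0.61 ± 0.10 (adjusted p = 0.00606) as 1 of 11 of its kind (9.09%). Camk1g had log2 intensities of 9.48, 9.67 and 9.47 on the acute morphine arrays, against 9.03, 8.92 and 8.84 on the saline arrays. With 1 array left out, Camk1g missed the threshold without saline replicate 3 (adjusted p = 0.051), Cdkn1a without saline replicate 1 or 3 (0.0543 and 0.0503), and Rin2 and Crot without any array but acute replicate 2 and saline replicate 2 (up to 0.127 and 0.162). Of 15 tested genes of glucose transport and its regulators 0 passed in limma and 0 with the random block. Of these, 5 had an unadjusted p under 0.05, against 17.1% of all genes, and 8 had all acute arrays on top, against 18.9%. They include the transporter Slc2a1 (0.45 ± 0.12, adjusted p = 0.0612), the Rab GTPase-activating protein Tbc1d4 (0.59 ± 0.17, adjusted p = 0.078) and the syntaxin-binding proteins Stxbp3 (0.52 ± 0.14, adjusted p = 0.0545) and Stxbp4 (0.43 ± 0.21, adjusted p = 0.275).

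Among the other large rises, Stab2, a scavenger receptor for hyaluronan, had log2 intensities of 9.02, 9.27 and 9.49 on the acute morphine arrays, against 8.43, 8.21 and 7.96 on the saline arrays, a change of 1.05 ± 0.21 (adjusted p = 0.0167). In the other strains the acute and saline means of Stab2 were 5.44 to 6.16, all under the detection threshold. Thbd, the endothelial anticoagulant thrombomodulin, had 0.96 ± 0.20 and Igfbp3, which binds insulin-like growth factors, 0.81 ± 0.20 (adjusted p = 0.0218 and 0.0439). Matn2, a matrilin of the extracellular matrix, had 1.03 ± 0.22 (adjusted p = 0.0218). The largest remaining rises were Gm19439 (0.95 ± 0.22), Atp10a (0.90 ± 0.22), a lipid flippase, Dennd4c (0.81 ± 0.20), an exchange factor for Rab10, and Helz2 (0.80 ± 0.19), a helicase. Thbd, Igfbp3, Atp10a and Helz2 were above the detection threshold on the 3 acute arrays and on 0 saline arrays, so that they entered the test only through the group in which they were high, and their p-values carry that limit. Of the 13 tested members of the endothelial list 1 rose (7.69%, against 0.883% of all genes) and 0 fell, with a median of 0.048. The riser was Ctla2a (0.61 ± 0.14, adjusted p = 0.0372). Of 9 pericyte and vessel wall genes 0 rose and 0 fell in limma, 2 had an unadjusted p under 0.05 and 0 passed with the random block, and the median was -0.16 with 6 of 9 below 0. With 1 array left out, the adjusted p of Stab2 ranged from 0.0154 to 0.115 and that of Thbd from 0.0166 to 0.13, past the threshold without acute replicate 2 or saline replicate 2, and Igfbp3 passed in no such fit (0.0534 to 0.18).

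Falls were fewer than rises by probe set and by gene, and many lay near the detection threshold. The mean of the acute arrays was under it for 28 of the 95 falls (29.5%), against 3.55% of all tested probe sets. Hnrnpl, a splicing regulator, had log2 intensities of 7.49, 8.08 and 7.10 on the acute morphine arrays, against 8.55, 8.36 and 8.74 on the saline arrays. Acute replicate 2 of Hnrnpl was the nearest to the saline arrays, the change was -0.99 ± 0.22 (adjusted p = 0.0229), and its other probe set differed by -0.09 (adjusted p = 0.833). Without 1 array its adjusted p ranged from 0.00954 to 0.171, and it passed only without acute replicate 2 or saline replicate 2. Atp8a1, which moves phosphatidylserine to the inner leaflet of membranes, had log2 intensities of 10.10, 9.95 and 10.03 on the acute morphine arrays, against 11.14, 10.52 and 11.25 on the saline arrays. Its change was -0.94 ± 0.24 (adjusted p = 0.0483), but the other 5 tested probe sets of the gene differed by -0.03 to 0.29 and 0 of them passed. Prkaa2, a catalytic subunit of the AMP-activated kinase, had log2 intensities of 8.67, 8.79 and 8.46 on the acute morphine arrays, against 9.69, 9.03 and 9.72 on the saline arrays, a change of -0.84 ± 0.20 (adjusted p = 0.0375), against -0.19 at its second probe set. In both genes saline replicate 2 stood between the groups. H6pd, the endoplasmic reticulum hexose-6-phosphate dehydrogenase that supplies NADPH to Hsd11b1, had log2 intensities of 6.52, 6.45 and 6.45 on the acute morphine arrays, against 7.19, 7.14 and 7.53 on the saline arrays, so that all acute arrays were below the detection threshold and the gene entered the test only through the saline arrays. The change was -0.81 ± 0.15 (adjusted p = 0.0117). Opalin, a membrane protein of mature oligodendrocytes, had log2 intensities of 8.30, 8.09 and 8.25 on the acute morphine arrays, against 9.07, 8.69 and 9.05 on the saline arrays, without overlap, and fell by 0.72 ± 0.14 (adjusted p = 0.0126). It was the only one of 18 tested oligodendrocyte and myelin genes to pass, and the list's median was -0.02. Of the 18, 5 had all acute arrays below all saline arrays, against 6.12% of all genes. A further 2 had them above, against 18.9%, and 4 had an unadjusted p under 0.05 in limma, against 17.1%. Of all genes, 0.211% fell. Opalin, H6pd and Prkaa2 passed without acute replicate 2 or saline replicate 2 and missed the threshold without each other array (adjusted p up to 0.0996, 0.105 and 0.207), and Atp8a1 passed without saline replicate 2 alone (up to 0.246 otherwise).

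The remaining large falls were 6430604M11Rik (-0.97 ± 0.25), Ccdc86 (-0.92 ± 0.21), Prelid2 (-0.91 ± 0.20), A930004D18Rik (-0.91 ± 0.21), Uroc1 (-0.91 ± 0.19), the urocanate hydratase, Pnmal1 (-0.76 ± 0.20), Gpbp1l1 (-0.76 ± 0.16), Hhat (-0.75 ± 0.16), the acyltransferase of hedgehog proteins, Ccdc180 (-0.72 ± 0.17) and Gm4432 (-0.67 ± 0.16), with adjusted p-values of 0.0218 to 0.0491. Ccdc86, Prelid2, Uroc1, Hhat and Ccdc180, like H6pd, were above the detection threshold on the 3 saline arrays and on 0 acute arrays, so that the filter required these to differ. Of the 140 called genes, 53 had more than 1 tested probe set, and in 27 of these all probe sets had the same sign. Chka, the choline kinase, had a probe set that rose by 0.65 and another that fell by 0.72 (adjusted p = 0.0281 and 0.0491). A call therefore belongs to a probe set, and transcript forms were not resolved here.

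Genes of the opioid system showed no call. Of 7 tested opioid peptide and receptor genes 0 passed in limma, 0 had an unadjusted p under 0.05 and 0 passed with the random block, and the median change was 0.003. Oprm1 had log2 intensities of 7.76, 7.87 and 7.97 on the acute morphine arrays, against 8.24, 8.01 and 8.14 on the saline arrays. All acute arrays of this gene, the mu receptor, lay below all saline arrays by a small margin, with a difference of -0.26 ± 0.15 (adjusted p = 0.36), and Oprk1, the kappa receptor, had -0.25 ± 0.15 (adjusted p = 0.378), likewise without overlap. Penk had log2 intensities of 12.18, 12.17 and 12.19 on the acute morphine arrays, against 12.26, 12.13 and 12.14 on the saline arrays, a difference of 0.003 ± 0.077 (adjusted p = 0.987). Pdyn, the dynorphin precursor, had 0.17 ± 0.10, Pomc -0.23 ± 0.14, Pnoc, the nociceptin precursor, 0.04 ± 0.19 and its receptor Oprl1 0.17 ± 0.092 (adjusted p of 0.331 to 0.934). Among 20 medium spiny neuron genes 0 passed, 2 had an unadjusted p under 0.05 and 0 passed with the random block, and the median was 0.044, close to that of all genes. Drd1 had 0.16 ± 0.12 and Drd2 0.04 ± 0.10, and the largest difference of the list was in the transcription factor Foxp1 (-0.40 ± 0.12, adjusted p = 0.0933).

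Marker lists of other cell types gave few calls, where 0.883% of all genes rose and 0.211% fell. In 17 astrocyte genes Dio2, the deiodinase that makes active thyroid hormone, rose: its log2 intensities were 9.52, 9.58 and 9.45 on the acute morphine arrays, against 8.47, 8.69 and 9.04 on the saline arrays, a change of 0.79 ± 0.17 (adjusted p = 0.0218, and 0.0281 to 0.15 with 1 array left out, highest without saline replicate 1). The summed linear intensity of the 17 genes was 28505 to 29809 on the acute arrays and 25497 to 28138 on the saline arrays, without overlap, and the part of astrocyte content in the result was not tested. Sums overlapped between groups for all 11 other cell type lists, among them the 13 endothelial genes (6531 to 6946 on the acute arrays, 5716 to 6571 on the saline arrays) and the 18 oligodendrocyte genes (27870 to 28251 and 26541 to 28893 in the same order). Of 13 microglia genes 0 passed in limma and 2 had an unadjusted p under 0.05, the median was 0.011 with 8 above and 5 below 0, and 1 gene had all acute arrays above and 1 had them below the saline arrays. The gene with acute arrays below was Cx3cr1, the fractalkine receptor, which differed by -0.61 ± 0.17 (adjusted p = 0.0587, and 0.0385 with the random block). Ttr, the transthyretin gene of choroid plexus, ranged from 9.45 to 12.07 on the acute arrays and from 9.60 to 12.39 on the saline arrays, so that it varied between pools of either group. Folr1, another choroid plexus marker, was below the detection threshold on all 6 arrays. Slc17a7, the vesicular glutamate transporter of cortical neurons, ranged from 8.59 to 8.80 on the acute arrays and from 7.92 to 8.97 on the saline arrays.

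The acute change of DBA/2J was set against that of the other strains, each with its own saline arrays. Minus the mean of the other 3 strains, 0 of 25633 probe sets differed at an adjusted p under 0.05 in limma (0.0%), with 2283 at an unadjusted p under 0.05, and against a single strain 0 differed from 129P3/J, C57BL/6J or SWR/J, with 1064, 4870 and 576 at an unadjusted p under 0.05. Within the same probe sets, the contrast called 4 rises and 0 falls in 129P3/J (0.0156% and 0.0%), 33 and 46 in C57BL/6J (0.129% and 0.179%) and 13 and 1 in SWR/J (0.0507% and 0.0039%), but counts past a threshold in 1 strain and not in another do not show a difference. The 217 rises of DBA/2J had a positive difference for 96.8% in 129P3/J, 59.9% in C57BL/6J and 99.5% in SWR/J, against 51.9%, 48.1% and 57.4% of all tested probe sets, and median changes there of 0.24, 0.051 and 0.34. For the 95 falls the share with a negative difference was 72.6%, 62.1% and 86.3% in the same order, against 48.1%, 51.9% and 42.6% of all. Since arrays of the same treatment and number deviated together across strains, these shares are not fully independent of the DBA/2J arrays.

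Named genes fell into different patterns across strains. Fkbp5 had a difference of 0.98 in DBA/2J, against 0.90 in 129P3/J, 0.94 in C57BL/6J and 0.76 in SWR/J. Cdkn1a had a difference of 1.06 in DBA/2J, against 1.14 in 129P3/J, 1.80 in C57BL/6J and 1.09 in SWR/J. Camk1g had a difference of 0.61 in DBA/2J, against 0.60 in 129P3/J, 0.66 in C57BL/6J and 0.58 in SWR/J. Other genes had a larger difference in DBA/2J than in each other strain, which their choice for a call in DBA/2J favors. In size, DBA/2J had the largest change for 194 of 217 rises and 93 of 95 falls, against 9724 of 25633 probe sets. The p-values of these genes against the other strains carry the same limit. Dnajb1 had a difference of 0.79 in DBA/2J, against 0.22 in 129P3/J, 0.09 in C57BL/6J and 0.35 in SWR/J. Hspa1b had a difference of 1.01 in DBA/2J, against 0.24 in 129P3/J, 0.44 in C57BL/6J and 0.36 in SWR/J. Arntl had a difference of 0.72 in DBA/2J, against 0.06 in 129P3/J, 0.12 in C57BL/6J and 0.18 in SWR/J. Per2 had a difference of 0.99 in DBA/2J, against 0.06 in 129P3/J, 0.17 in C57BL/6J and 0.39 in SWR/J. The difference of DBA/2J from the mean of the others had an unadjusted p of 0.000228 for Dnajb1, 0.00121 for Hspa1a, 0.00199 for Hspa1b, 0.000349 for Arntl, 0.00401 for Per2 and 0.00546 for Per1, and adjusted values of 0.323 to 0.43, so none passed. Over the 19 heat shock genes the median change was 0.25 in DBA/2J, against 0.027 in 129P3/J, 0.017 in C57BL/6J and 0.032 in SWR/J, and over the 29 glucocorticoid-responsive genes 0.31, against 0.27, 0.48 and 0.25. Members of both lists were chosen with the study's results on these arrays known.

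The 6 genes of smallest p for the strain difference, each at its probe set of highest mean signal, all had a difference below 0 in DBA/2J. H6pd had a difference of -0.81 in DBA/2J, against 0.13 in 129P3/J, 0.06 in C57BL/6J and 0.19 in SWR/J. Its difference from the mean of the others was -0.94 ± 0.18 (adjusted p = 0.139), and 0.0356 with the random block of treatment and number, where it passed with 2 other probe sets, 1 of Gfod1 and 1 without a symbol. H6pd and Pnma5 were above the detection threshold in DBA/2J on the 3 saline arrays and on 0 acute arrays, so that their difference below 0 was set by the filter and their strain difference is given as a description. Pnma5 differed by -0.65 ± 0.14, Osm, the cytokine oncostatin M, by -0.69 ± 0.15, Igf2os, a transcript antisense to Igf2, by -0.66 ± 0.15, Hrh2, the histamine H2 receptor, by -0.62 ± 0.14 and the transcription factor Pou4f3 by -1.04 ± 0.24 (adjusted p = 0.323 each). Within DBA/2J, Pnma5 (-0.67 ± 0.12), Osm (-0.63 ± 0.13) and Igf2os (-0.62 ± 0.13) fell, and Hrh2 (-0.47 ± 0.12) and Pou4f3 (-0.73 ± 0.20) did not pass (adjusted p = 0.0545 and 0.0664). Osm had log2 intensities of 7.63, 7.61 and 7.48 on the acute morphine arrays, against 8.20, 8.16 and 8.24 on the saline arrays.

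**Figure D4:**
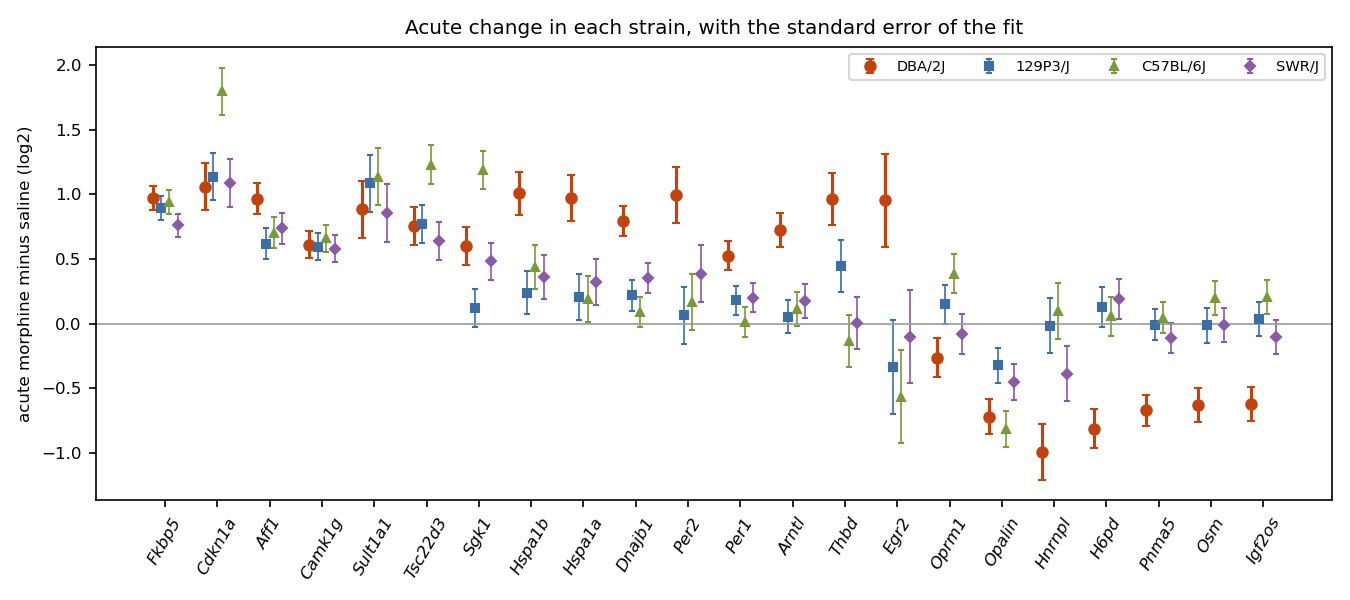
Acute morphine minus saline on the log2 scale (vertical axis) for 22 genes in DBA/2J, 129P3/J, C57BL/6J and SWR/J, 3 arrays per group, with the standard error of the fit as bars. Fkbp5 lies between 0.76 and 0.98 in all strains, whereas Dnajb1, Hspa1a, Arntl and Per2 are highest in DBA/2J and H6pd is below 0 in DBA/2J alone, where its acute arrays were all below the detection threshold, as were those of Pnma5 and the saline arrays of Thbd. Genes named for a call in DBA/2J are favored to show a larger difference there. No difference between strains passed the adjusted threshold in the fit without a block.

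Chronic morphine in DBA/2J is given beside the acute values, and both comparisons share the saline arrays. Over the 217 acute rises the median of chronic morphine minus saline was 0.17, and over the 95 acute falls -0.15, against -0.02 over all tested probe sets. The contrast itself called 1 rise, Fkbp5, and 1 fall (0.0039% of probe sets each). Against the acute group, 298 probe sets (1.16%) were lower and 79 (0.308%) higher after chronic morphine, or 185 (1.45%) and 31 (0.242%) by gene. This contrast shares the acute arrays by which the genes below were chosen, so that values nearer to saline after chronic morphine are favored by the choice. Fkbp5 was at 9.77, 9.65 and 9.49 after chronic morphine, and chronic minus acute was -0.36 ± 0.092 (adjusted p = 0.0486), a difference from saline of 0.62 ± 0.092 (adjusted p = 0.00676). Dnajb1 was at 9.58, 9.88 and 9.65 on the chronic arrays, and chronic minus acute was -0.60 ± 0.12 (adjusted p = 0.0232). Crot was at 7.93, 7.92 and 7.96 on the chronic arrays, and chronic minus acute was -0.73 ± 0.14 (adjusted p = 0.0192). Rhpn2 (-0.75), Klf15 (-0.63), Aff1 (-0.58) and Arntl (-0.52) were also lower after chronic than after acute morphine, and Atp8a1 (0.96), Prkaa2 (0.89), Pnma5 (0.52), Osm (0.52) and Igf2os (0.69) were higher, each at an adjusted p under 0.05. Hspa1b (-0.59, adjusted p = 0.0561), Per2 (-0.53, adjusted p = 0.144) and Cdkn1a (-0.37, adjusted p = 0.224) did not pass this contrast.

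**Figure D5:**
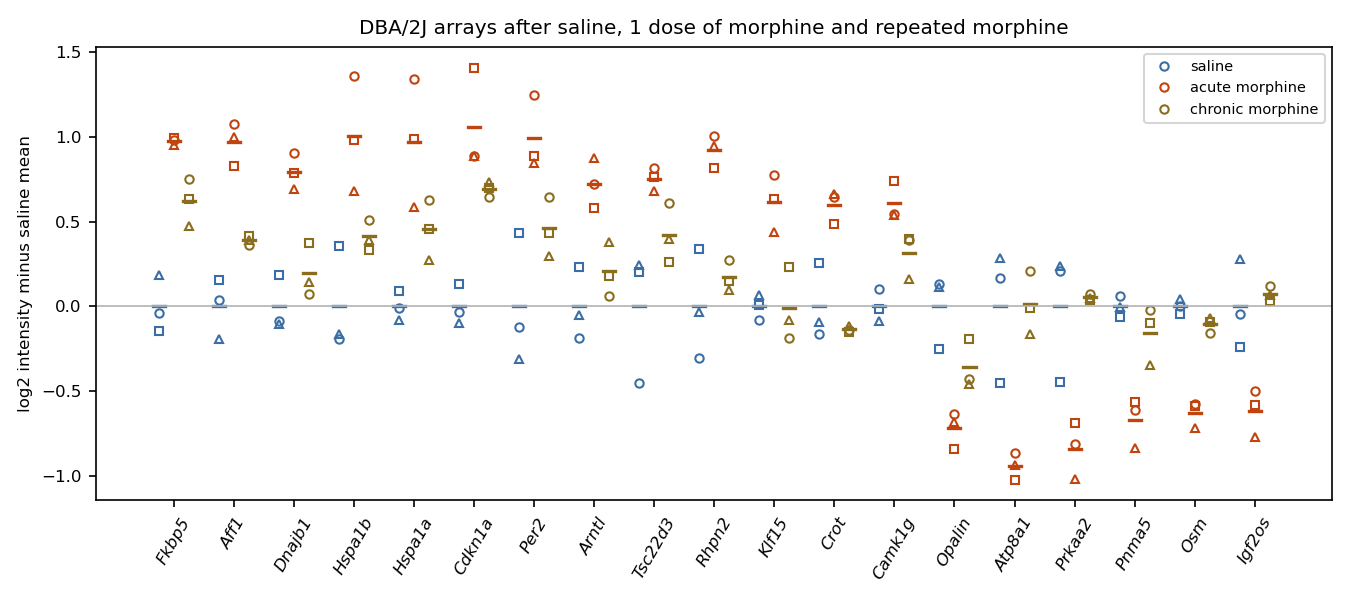
Log2 intensity minus the mean of the saline arrays (vertical axis) for 19 genes on the 3 saline, 3 acute morphine and 3 chronic morphine arrays of DBA/2J, with replicates by symbol and means as bars. The genes were chosen for their difference between the acute and saline arrays, so that the place of the chronic means between these is no finding, and the chronic mean is at 0.62 for Fkbp5 and 0.20 for Dnajb1.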

How the data were processed

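Striatal RNA of pools of 3 mice was hybridized to Affymetrix whole-genome mouse arrays. The deposited table holds linear intensities that the authors made from the scanned arrays, per their methods a model-based expression index (dChip, perfect match minus mismatch) with quantile normalization, although whether both steps were applied to exactly this table could not be checked from its values, and its lowest values sit at a common floor of 6.69. Array medians of DBA/2J were 121 to 133, with 3.84% to 4.53% of probe sets at the floor. Intensities were taken to log2 and fitted in limma 3.58.1 (R 4.3.3, statmod 1.5.0) with 12 group means over all 36 arrays, 24 residual and 4.13 prior degrees of freedom, and Benjamini-Hochberg adjustment over 25633 probe sets. The other groups thus share 1 estimate of the spread. Tables and figures used Python 3.11.15, pandas 2.3.3, numpy 2.4.6 and matplotlib 3.10.9.

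Of 45037 probe sets, 34945 had 1 gene symbol in the platform annotation, 932 several and 9160 none, and genes were named only from the first kind. Named genes were the 20 largest rises and 15 largest falls without overlap, the 6 of smallest p for the strain difference, up to 4 called members of each list (the 2 largest where none was called), and all members of the heat shock, opioid and corticosteroid receptor lists. Further genes are named as members of a list, or as chosen after their values were seen. Members and lists were chosen with earlier results of these data known. Alternatives changed the filter, a pseudocount (32), the normalization, the moderation, array weights, blocks, the arrays fitted and the probe set that stands for a gene. The fit was tested on simulated data first. Noise there was independent between arrays, so the deviations shared by arrays of the same treatment and number were not covered. The study's multivariate test over 3 normalizations was not repeated, since 1 of these is used here. Some items are not reported here.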

Additional observations from a re-analysis of the deposited data

Results flagged for a closer look

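For 7 of 110 named genes (6.36%) the 3 acute arrays lay wholly on 1 side of the saline arrays in DBA/2J and wholly on the other side in at least 1 of the 3 other strains, against 546 of all 12791 genes tested (4.27%). Many named genes were chosen for groups that do not overlap in DBA/2J, which this pattern requires. Of all genes, 18.9% had all acute arrays above and 6.12% below the saline arrays. The shares of named and of all genes are therefore not alike, and no excess is read from them. Hspa4l, an Hsp110 family chaperone, had acute minus saline of 0.33 in DBA/2J and -0.26 in C57BL/6J (adjusted p = 0.43 for DBA/2J against the mean of the other strains). Ahsa1, the Hsp90 cochaperone, had acute minus saline of 0.26 in DBA/2J and -0.17 in C57BL/6J (adjusted p = 0.534 for DBA/2J against the mean of the other strains). Rorb, a nuclear receptor of the clock, had acute minus saline of -0.24 in DBA/2J and 0.31 in C57BL/6J (adjusted p = 0.534 for DBA/2J against the mean of the other strains). A930004D18Rik had acute minus saline of -0.91 in DBA/2J and 0.19 in SWR/J (adjusted p = 0.379 for DBA/2J against the mean of the other strains). Oprm1, the mu opioid receptor, had acute minus saline of -0.26 in DBA/2J and 0.39 in C57BL/6J (adjusted p = 0.526 for DBA/2J against the mean of the other strains). Igf2os, a transcript antisense to Igf2, had acute minus saline of -0.62 in DBA/2J and 0.21 in C57BL/6J (adjusted p = 0.323 for DBA/2J against the mean of the other strains). Pou4f3, a POU transcription factor, had acute minus saline of -0.73 in DBA/2J and 0.62 in C57BL/6J (adjusted p = 0.323 for DBA/2J against the mean of the other strains). The difference between these pairs of strains passed no adjusted test, and no cause was tested.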

How the results depend on the processing

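The 217 rises and 95 falls kept their sign in all alternatives that tested them. That says little, since changes of filter or test leave the estimate as it is. Groups that do not overlap also cannot turn sign with 1 array left out. The counts moved. They were 73 and 34 with no filter on signal, 211 and 62 after quantile normalization, 170 and 50 with the classical test in place of the moderated one, 3168 and 2187 with array weights, 15 and 5 at an adjusted p under 0.01, 114 and 72 with a fold of at least 1.5, and 2825 and 1875 at an unadjusted p under 0.05. The fit to the 6 arrays alone called 0 and 0. With 1 array left out there were 7 to 533 rises and 1 to 383 falls. The difference from the other strains was called for 636 probe sets with array weights, 0 to 1 with 1 array left out (1 without saline replicate 2), and 2283 at an unadjusted p under 0.05. The causes were not tested.

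Deviations of same-numbered acute and saline arrays correlated at 0.19, 0.32 and -0.28, too few pairs to decide whether the numbers pair these arrays. With the number as a fixed block in the 6 arrays, 0 rises and 0 falls were called, as without the block, with 4331 probe sets at an unadjusted p under 0.05. With a random block for treatment and number over all arrays (correlation 0.245) there were 324 rises and 134 falls, 305 of the 312 called probe sets among them, and 3 strain differences. That block without acute replicate 3, chosen after seeing the data, gave 21 rises, 6 falls and 1 strain difference, and over the 24 acute and saline arrays 420, 195 and 10.

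With 1 of the 6 arrays left out, small differences of genes that did not pass turned sign, with ranges of -0.019 to 0.046 for Penk, -0.025 to 0.089 for Ppp1r1b, -0.093 to 0.032 for Nr3c1, -0.059 to 0.10 for Nr3c2, -0.10 to 0.31 for Chordc1, -0.021 to 0.045 for Stip1, -0.097 to 0.066 for Bag3 and -0.050 to 0.19 for Pnoc. With array weights the sign turned, to -0.037 for Penk, -0.019 for Ppp1r1b, -0.041 for Nr3c2 and 0.0033 for Bag3. With the mean of all tested probe sets the sign turned, to 0.062 for Nr3c1, -0.30 for Fkbp4, -0.14 for Rora and -0.30 for Tef. With quantile normalization the sign turned, to -0.020 for Penk, -0.0057 for Ppp1r1b, -0.048 for Stip1 and -0.0099 for Drd2. With the random block without acute replicate 3 the sign turned, to -0.0074 for Penk, -0.0063 for Nr3c2, -0.017 for Stip1, 0.060 for Bag3 and -0.059 for Pnoc. Of 2354 alternative values of 110 named genes, 1870 kept direction and side of the threshold, 390 lost the call, 58 gained one and 36 turned sign. This total pools called genes with genes not called, which keep their side unless a setting calls them. Among called genes, Pnmal1 passed in 6 of 21 settings and Fkbp5 in 19 of 21. Of the 25633 tested probe sets 22232 were above the detection threshold on all 6 arrays, as were 170 of the 217 rises and 64 of the 95 falls.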
